A study of Capra hircus with 3 samples.

Results

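The liver sinusoidal endothelial cells of goat liver were taken here as droplet barcodes chosen by their unique molecular identifier (UMI) counts in 3 single-cell libraries. A barcode was a member when its summed UMIs of STAB2, BMPER, KDR and PTPRB were at least 4 and above those of the hepatocyte genes CPS1 and ABCB11. The sum also had to exceed that of the vascular endothelial genes VWF, TLL1 and MECOM, and MSR1 and THEMIS, genes of macrophages and T cells, had to be at 0. Of 25591 barcodes, 1773 (6.93%) were members: 300 in the healthy library, 566 in the steatohepatitis library and 907 in the tolerance library. These genes chose the members, so their levels describe the choice and carry no test.

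Sinusoidal endothelial cells line the capillaries of the liver lobule. They are perforated by fenestrae without a continuous basement membrane, so plasma reaches hepatocytes directly. They clear waste proteins, glycans and immune complexes from blood through scavenger and lectin receptors (STAB2, MRC1, LYVE1, CLEC4G), make coagulation factor VIII, and send angiocrine signals such as Wnt ligands and HGF to hepatocytes. In steatohepatitis they are known to lose fenestrae and gain basement membrane, a change called capillarisation.

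The donors were female goats aged 3 to 4 years. Con goats were healthy and on the diet labelled LRDS, NASH goats had steatohepatitis on the diet labelled HRDS, and NASH-T goats were labelled as tolerant of steatohepatitis, also on HRDS. Livers were digested with 0.25% trypsin and DNase at 37 °C for 40 min, and the livers of 5 goats per group were pooled before the library was made. With 1 library per group there was no replicate, so no p-value is given, and differences between pools and between conditions cannot be told apart. All 3 comparisons use only these libraries, and NASH and NASH-T were both set against the same Con library.

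Levels are given as CPM, a gene's UMIs per 1000000 UMIs summed over the members of a library, in the order Con, NASH and NASH-T. Ratios of CPM carry exact 95% intervals, written after them, that cover counting error only, not differences between animals. Genes with at least 20 UMIs over both libraries were measured, and one passed the limit as higher or lower when the fold in that direction reached 1.5 and the interval excluded 1. A library with 0 UMIs was set to a floor of 3 UMIs, and the ratio is then a bound. The members held 789016, 1245033 and 1990116 UMIs, with medians of 1918, 1684 and 1762 UMIs per barcode.

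The label held for most but not all members. STAB2, the hyaluronan scavenger receptor used in the rule, stood at 2850.4, 3248 and 3139 CPM, and BMPER, a secreted BMP modulator also used, at 5262, 5727 and 6352 CPM. CLEC9A, which the rule did not use, stood at 973, 1187 and 1451 CPM. T cell barcodes held 3.92, 7.12 and 7.17 CPM of it and macrophage barcodes 1.86, 6.55 and 5.34 CPM. Vascular endothelial barcodes held 30, 9 and 53 CLEC9A UMIs, and the members' CPM were 5.13, 17.5 and 7.16 times theirs. After each barcode was thinned to 1000 UMIs, 61.5%, 65.5% and 71.3% of members held a CLEC9A UMI, against 0.389%, 0.336% and 1.08% of T cell barcodes (unthinned 75.0%, 79.3% and 84.0% of members). CLEC9A is best known as a receptor of cross-presenting dendritic cells, and the members held UMIs of 6, 7 and 7 of the 11 dendritic cell markers (summed 636, 490 and 388 CPM). XCR1, CD1E, CCR7 and SNX22 of that list were at 0 in all 3 libraries. CADM1, also of that list, made up most of the sum, at 455, 347 and 243 CPM. Summed pan-endothelial genes stood at 11684, 11751 and 12881 CPM, and T cell barcodes held 3078, 3137 and 3142 CPM of the same list. Vascular endothelial barcodes held 12768, 11917 and 12868 CPM of it, so this list did not set the members apart from them. STAB1, FCGR2B and CLEC4M were not analysed here.

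When the members were clustered on their own, 7 sub-clusters formed, and sub-clusters 4 to 6 held the highest sums of several marker lists of other cell types. Sub-cluster 4 (155 barcodes) was led by PIK3C2G, ADRA1A and AGMO and held 14408 CPM of summed hepatocyte markers, against 3240 to 4701 CPM in the others. Its median was 5183 UMIs, and the doublet caller Scrublet marked 27.7% of its barcodes. Sub-cluster 5 (90 barcodes) was led by HMCN1, AFF3 and TOX and held 663 CPM of summed T and natural killer cell markers, against 25.8 to 51.1 CPM elsewhere. It also held 916 CPM of dendritic cell and 711 CPM of B or plasma cell markers, the highest sums of the sub-clusters. T cell barcodes held 5757, 5752 and 5643 CPM of the T and natural killer list. Sub-cluster 5 also held 12090 CPM of pan-endothelial genes and 2102 CPM of vascular endothelial markers, and what its barcodes are was not tested. Scrublet marked 16.7% of its barcodes. Sub-cluster 6 (45 barcodes) was led by RELN, HHIP and SYNPO2 and held 15011 CPM of summed stellate cell and fibroblast markers, against 55.5 to 570 CPM elsewhere.

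These 3 sub-clusters took 41.9%, 39.5% and 22.3% of the members' UMIs, so they moved with the libraries. The main results are therefore given over all members and again over sub-clusters 0 to 3, which held 238, 439 and 806 barcodes. Their part in a difference was not tested beyond that. Of the members 7, 16 and 46 were marked as doublets by Scrublet and were kept. Between 20 and 23 barcode sequences recurred in each pair of libraries, 1 of them among members.

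**Figure D1:**
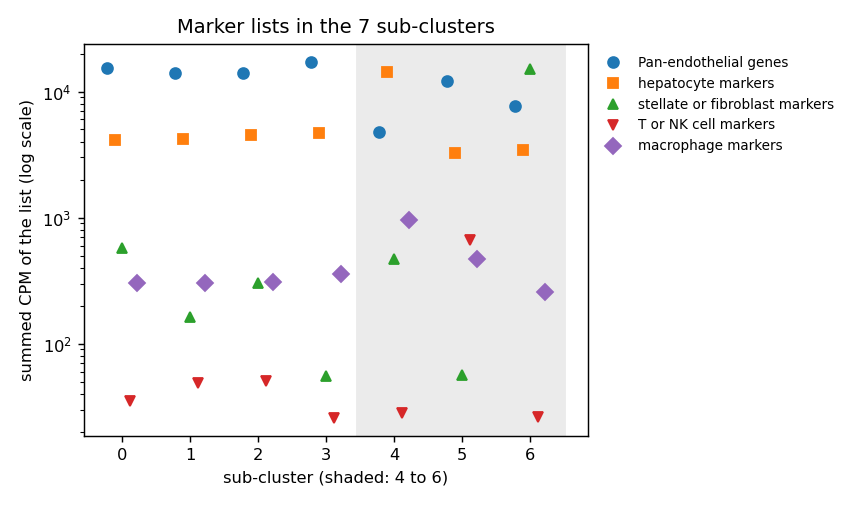
Summed CPM (log scale) of 5 marker lists in each of the 7 sub-clusters of the sinusoidal members, libraries pooled, with sub-clusters 4 to 6 shaded. Hepatocyte markers peak in sub-cluster 4 at 14408 CPM, T or NK cell markers in 5 at 663 CPM and stellate or fibroblast markers in 6 at 15011 CPM.

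Sinusoidal barcodes made up 4.01% of the Con library (300 of 7485, exact binomial 95% interval 3.57 to 4.48). They made up 6.48% of NASH (566 of 8731, 5.98 to 7.02) and 9.67% of NASH-T (907 of 9375, 9.08 to 10.3). The share was 1.62 times that of Con in NASH (1.41 to 1.85) and 2.41 times in NASH-T (2.13 to 2.74), and NASH-T over NASH was 1.49 (1.35 to 1.65). Con was lowest and NASH-T highest, and no 2 of the intervals overlapped. Over sub-clusters 0 to 3 the shares were 3.18%, 5.03% and 8.60%.

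Hepatocyte barcodes, which share the denominator, made up 34.6%, 45.0% and 29.8% of the libraries. Among barcodes with fewer than 4 UMIs of CPS1 and ABCB11 together, the sinusoidal share was 6.54%, 12.7% and 14.5%, so NASH-T over NASH shrank to 1.14 while NASH over Con grew to 1.94. Requiring CPS1 and ABCB11 at 0 left 227, 439 and 754 barcodes, or 3.03%, 5.03% and 8.04% of the libraries. Vascular endothelial barcodes, the other endothelial class, made up 1.11%, 0.744% and 1.23%, an order unlike that of the sinusoidal ones. A share of barcodes from digested tissue does not give a number of cells in the liver, and recovery of cells was not measured.

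**Figure D2:**
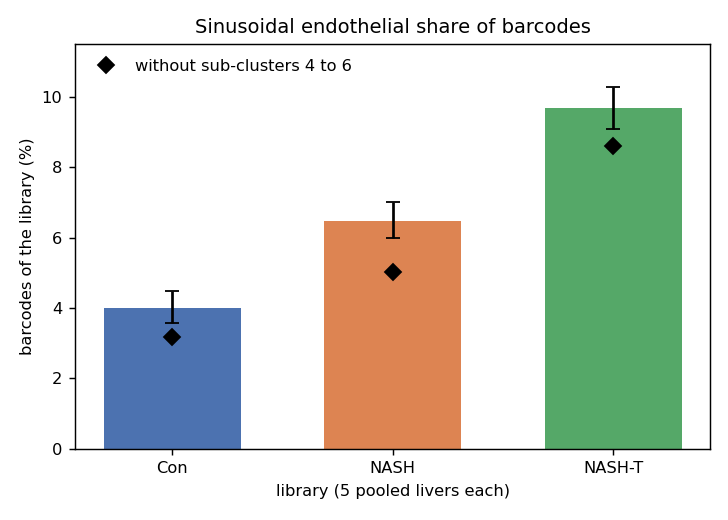
Share of barcodes in the sinusoidal class in Con, NASH and NASH-T (bars in percent, with 95% intervals for counting error only), and without sub-clusters 4 to 6 (diamonds). The bars stand at 4.01%, 6.48% and 9.67% and the diamonds at 3.18%, 5.03% and 8.60%.

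Few barcodes lay at the edge of the rule. Members with the minimum sum of 4 numbered 7, 13 and 14, and 10, 13 and 30 barcodes that met the other conditions had a sum of 3. The median sum was 23, 21 and 22 UMIs. Of 441, 793 and 1164 barcodes with a sum of at least 4, 52, 156 and 88 did not exceed their hepatocyte sum and 61, 39 and 82 did not exceed their vascular sum. MSR1 or THEMIS was found in 44, 51 and 106 of them. A UMI of CPS1 or ABCB11 remained in 73, 127 and 153 members.

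Among sub-clusters 0 to 3, median depth was alike (1546.5 to 1679.5 UMIs) and Scrublet marked at most 1.37% of barcodes. Sub-cluster 0 (420 barcodes) was led by SAMD5, KIF26B, CEMIP and SELP, the last a marker of vascular endothelium. The Wnt ligand WNT2, which is known from the pericentral sinusoid, ranked 8, and PKHD1L1, a marker of lymphatic endothelium, ranked 10. Sub-cluster 1 (413 barcodes) was led by SLC7A8, ANKRD1 and DACH1, and sub-cluster 3 (284 barcodes) by ATP13A3, SCIN and RASGRF2. Summed vascular endothelial markers outside the rule stood at 2203 CPM in sub-cluster 3, against 1119 to 1205 CPM in 0 to 2. Vascular barcodes held 2000, 2093 and 2175 CPM of the same list. The part of vascular endothelium in sub-cluster 3 was not tested. Sub-cluster 2 (366 barcodes) was led by EPHB1, MMRN1, MX1, ZFP36 and OAS1, and 336 of its barcodes came from NASH-T, so it may be that library rather than a cell state. None of the 4 was given a zonal name.

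OIT3, GATA4, F8 and MAF, genes of sinusoidal identity, passed the limit in no comparison. OIT3, a zona pellucida domain protein of these cells, stood at 501, 549 and 626 CPM, and GATA4, the transcription factor that specifies them, at 593, 631 and 663 CPM. F8, coagulation factor VIII, stood at 1100.1, 1234 and 1544 CPM. The highest of the 3 ratios was 1.25 (1.11 to 1.40) for OIT3, 1.12 (1.00 to 1.24) for GATA4 and 1.40 (1.30 to 1.51) for F8, all NASH-T over Con and under the 1.5-fold limit. MAF, a transcription factor of sinusoidal identity, stood at 1042, 1099.6 and 1470.3 CPM, also under that limit.

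Over the whole identity list, 3 higher and 1 lower of 20 measured genes differed for NASH against Con, where 4.84% of all 8362 genes were higher and 5.99% were lower. NASH-T against Con gave 2 higher and 3 lower of 21, where 5.51% of 9164 genes were higher and 9.8% were lower. NASH-T against NASH gave 0 higher and 4 lower of 21, where 5.62% of 9482 genes were higher and 8.27% were lower. Over sub-clusters 0 to 3 the same counts were 2 higher and 0 lower of 17, 0 higher and 0 lower of 18 and 0 higher and 1 lower of 19. There the shares of all genes were 4.19% and 4.79%, 4.62% and 4.6%, and 4.88% and 3.79%, higher and lower in turn. The counts of other lists are read against these shares, and a count over all members is followed in parentheses by that over sub-clusters 0 to 3. Median log2 ratios of the list over all members were 0.15, 0.32 and 0.07, against −0.01, 0.01 and 0.02 over all genes.

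TFEC, a transcription factor of the MiT family, was the identity gene with the widest spread. It stood at 174, 400.0 and 240.2 CPM, so NASH was 2.30 times Con (1.90 to 2.80) and NASH-T was 1.67-fold lower than NASH (ratio 0.600, 0.529 to 0.682). Over sub-clusters 0 to 3 it stood at 203, 526 and 292 CPM, with a NASH over Con ratio of 2.59 (2.06 to 3.28). Within single sub-clusters the ratio was 3.82 (2.63 to 5.71) in 0, 1.66 (1.12 to 2.51) in 1 and 2.50 (1.25 to 5.25) in 3, and in sub-cluster 2, with few barcodes of either library, 0.923 (0.390 to 2.15). NASH was thus above Con in 3 of these 4. Macrophage barcodes, which also express TFEC, stood at 916, 941 and 1018 CPM. Summed macrophage markers in the members were 551, 467 and 425 CPM, and their part was not tested.

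DNASE1L3, a secreted DNase of sinusoidal cells, stood at 97.6, 157 and 147 CPM, 1.60 (1.23 to 2.12) times Con in NASH and 1.51 (1.17 to 1.97) times in NASH-T. Its ratios over sub-clusters 0 to 3 were 1.72 and 1.49. IL33, an alarmin of the interleukin-1 family, stood at 1076, 1610.4 and 1676 CPM, and its NASH-T over Con ratio of 1.56 was 1.27 over sub-clusters 0 to 3. Con was the lowest library for both genes.

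Of the scavenger and lectin receptors, MRC1 and LYVE1 were higher in NASH-T than in Con. MRC1, the mannose receptor, stood at 672, 879 and 1168 CPM, 1.74 (1.58 to 1.91) times Con in NASH-T and 1.31 (1.18 to 1.45) times in NASH. LYVE1, a hyaluronan receptor, stood at 229, 289 and 385 CPM, 1.68 (1.43 to 1.99) times Con in NASH-T. For both, Con was lowest and NASH-T highest. In sub-clusters 0 to 3 together the NASH-T over Con ratios were 1.5 (1.35 to 1.67), which passed, and 1.5 (1.25 to 1.81), just under the limit. Within single sub-clusters the ratios of MRC1 were 1.32, 1.26, 1.35 and 1.18 in 0 to 3.

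CD36, a fatty acid and lipoprotein receptor, stood at 669, 692 and 731 CPM, and CLEC4G, the lectin LSECtin, at 422, 356 and 488 CPM. CLEC1B stood at 63.4, 77.9 and 86.4 CPM and SCARF1, a scavenger receptor for modified lipoproteins, at 46.9, 64.3 and 66.3 CPM. None of these 4 passed the limit in any comparison. Of the list, 2 higher and 2 lower of 10 (1 and 0 of 9) measured receptors passed for NASH-T against Con, where all genes gave 5.51% and 9.8%, and the 2 lower ones were SCARB1 and LRP1. SCARB1, the receptor for high-density lipoprotein, stood at 134, 162 and 79.4 CPM over all members and at 19.6, 34.5 and 20.7 CPM over sub-clusters 0 to 3. LRP1 stood at 54.5, 32.1 and 18.6 CPM and at 4.37, 5.31 and 3.88 CPM. Both genes were thus mostly counted in sub-clusters 4 to 6.

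Few pan-endothelial genes passed. For NASH against Con the count was 1 higher and 0 lower of 22 measured, for NASH-T against Con 2 higher and 0 lower of 22, and for NASH-T against NASH 0 higher and 0 lower of 22. None of the 22 genes passed over sub-clusters 0 to 3 in any of the 3 comparisons, where 3.79% to 4.88% of all genes did in each direction. In a list of 22 genes a count of 0 lies close to those shares. ERG, an endothelial transcription factor, was the gene that passed in both comparisons with Con (460.1, 704 and 731 CPM). PECAM1 stood at 707, 573 and 726 CPM. CDH5, VE-cadherin, stood at 71.0, 77.9 and 65.3 CPM, under the 240.3, 244 and 221 CPM of the macrophage barcodes, so it did not set these members apart from macrophages.

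**Figure D3:**
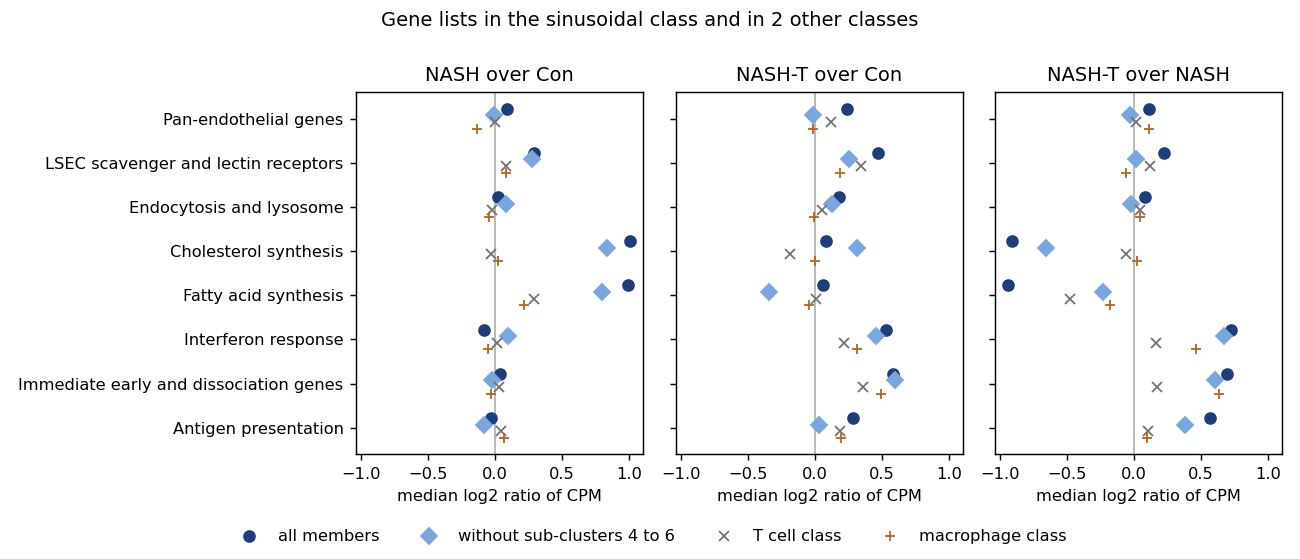
Median log2 ratio of CPM over the measured genes of 8 lists, in 3 comparisons, for all sinusoidal members, for sub-clusters 0 to 3 and for the T cell and macrophage barcodes. Cholesterol synthesis sits at 1.01 in NASH over Con among members and at −0.03 in T cells, and interferon response at 0.72 in NASH-T over NASH.

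A part of the cholesterol synthesis genes was higher in NASH than in the other libraries. For NASH against Con, 11 higher and 0 lower of 19 measured genes passed, with a median log2 ratio of 1.01. For NASH-T against NASH the count was 0 higher and 12 lower of 20, with a median of −0.91. For NASH-T against Con it was 2 higher and 0 lower of 19, with a median of 0.09. Over sub-clusters 0 to 3 the counts for NASH against Con and NASH-T against NASH were 4 higher and 0 lower of 10 (median 0.84) and 0 higher and 5 lower of 17 (median −0.66). For NASH against Con the same list gave 2 higher and 0 lower of 19 in T cell barcodes, where all genes gave 3.33% higher and 3.99% lower. In macrophage barcodes it gave 0 higher and 2 lower of 18, with 3.23% and 5.47% of all genes. Hepatocyte barcodes gave 18 higher and 0 lower of 23, with 5.62% and 10.3% of all genes. Within single sub-clusters, NASH against Con gave 11 higher and 0 lower of 17 in sub-cluster 4, which held the most hepatocyte markers. Sub-cluster 0 gave 4 higher and 0 lower of 6, and sub-cluster 1 gave 0 higher and 0 lower of 3. Shares of all genes in single sub-clusters were not computed for NASH against Con.

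IDI1, the isopentenyl-diphosphate isomerase, stood at 27.9, 122 and 60.3 CPM, and NASH was 4.38 (2.79 to 7.19) times Con. Its level over sub-clusters 0 to 3 was lower in every library, at 13.1, 54.5 and 31.7 CPM, but the ratio was similar at 4.16 (1.76 to 12.0). FDPS, the farnesyl diphosphate synthase, stood at 20.3, 85.1 and 32.7 CPM (4.20, 2.47 to 7.61) and over sub-clusters 0 to 3 at 13.1, 50.5 and 22.6 CPM (3.85, 1.62 to 11.2). T cell barcodes held 29.4, 66.4 and 34.4 CPM of FDPS and 52.2, 69.6 and 68.4 CPM of IDI1, above those of sub-clusters 0 to 3 in each library, and hepatocyte barcodes held 119.8, 359 and 262 CPM of IDI1. Summed hepatocyte markers stood at 3465, 4620 and 4491 CPM over sub-clusters 0 to 3, so Con was lowest there too, and their part in these ratios was not tested.

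MSMO1, a sterol demethylating oxidase, stood at 55.8, 133 and 67.3 CPM (2.38 in NASH over Con, 2.70 over sub-clusters 0 to 3). FDFT1, squalene synthase, stood at 58.3, 134 and 59.3 CPM and had a ratio of 2.30, against 1.41 (0.869 to 2.35) over sub-clusters 0 to 3. SQLE, squalene epoxidase, had a ratio of 2.01 and did not pass over sub-clusters 0 to 3. NASH was the highest library for IDI1, FDPS, MSMO1, FDFT1 and SQLE alike.

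**Figure D4:**
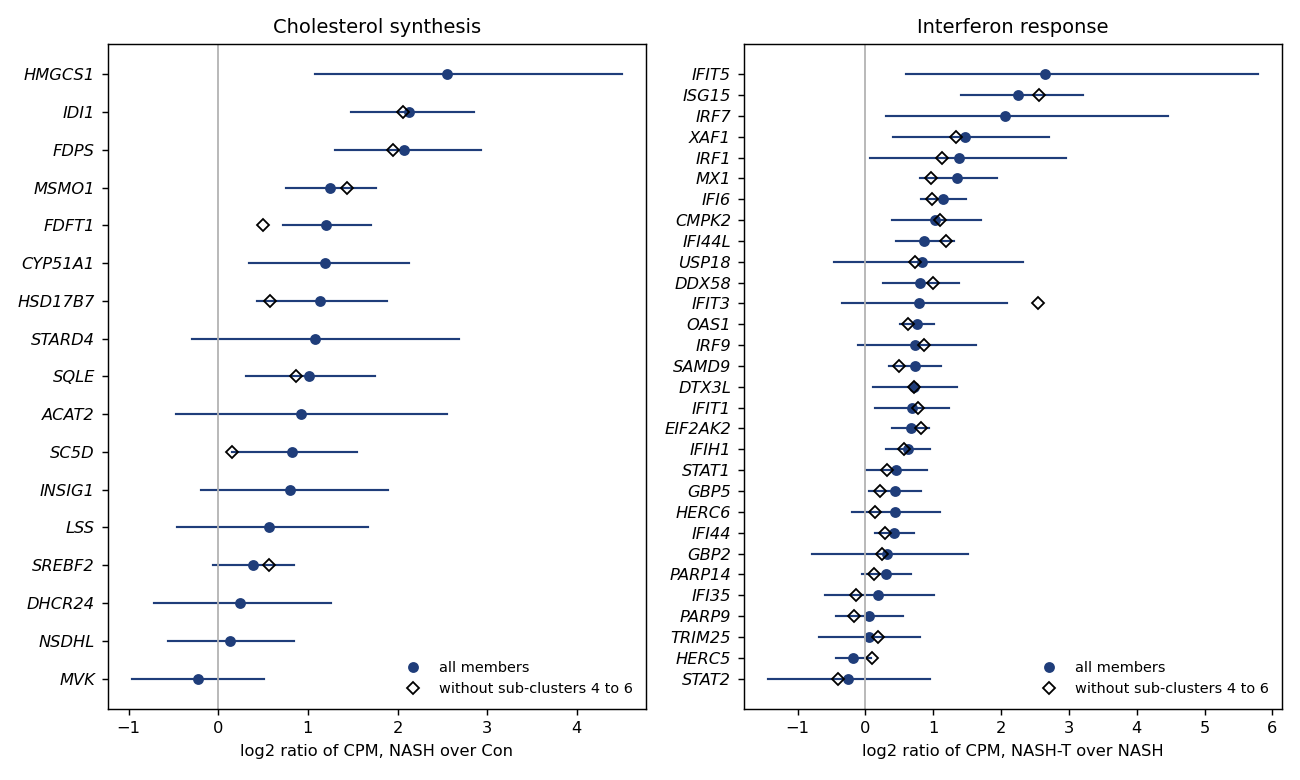
Log2 ratio of CPM, gene by gene, for genes of cholesterol synthesis in NASH over Con (left) and interferon response in NASH-T over NASH (right), with 95% intervals for counting error only over all members and open diamonds for sub-clusters 0 to 3 where the gene had enough UMIs. Most circles of the left panel lie right of 0, with IDI1 at 4.38-fold and FDPS at 4.20-fold, and in the right panel the circles of 16 genes pass the limit.

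A part of the fatty acid synthesis genes was also higher in NASH, with 7 higher and 0 lower of 11 measured genes for NASH against Con (median log2 ratio 0.99) and 0 higher and 9 lower of 13 for NASH-T against NASH (median −0.94). NASH-T against Con gave 0 higher and 2 lower of 12. In sub-clusters 0 to 3 these were 3 higher and 0 lower of 6, 1 higher and 4 lower of 10 and 0 higher and 0 lower of 9. For NASH against Con, sub-cluster 4 alone gave 7 higher and 0 lower of 9. Sub-cluster 0 gave 1 higher and 0 lower of 3, and sub-clusters 1 and 3 gave 0 higher and 0 lower of 1 each. As above, shares of all genes in single sub-clusters were not computed for this comparison. Hepatocyte barcodes gave 13 higher and 0 lower of 18 for NASH against Con (median 1.26), where all genes gave 5.62% higher and 10.3% lower. For NASH-T against NASH they gave 0 higher and 9 lower of 18, with 6.89% and 5.17% of all genes. T cell barcodes gave 2 higher and 0 lower of 10 and 0 higher and 3 lower of 10. All genes there gave 3.33% and 3.99%, and 4.43% and 3.19%, in turn. The part of hepatocyte RNA in the members' values was not tested. FASN, fatty acid synthase, had 4, 134 and 27 UMIs, or 5.07, 108 and 13.6 CPM, and NASH was 21.2 (8.10 to 79.1) times Con and 7.93-fold above NASH-T. Only 1, 31 and 14 of these UMIs lay in sub-clusters 0 to 3, with a NASH over Con ratio of 18.9 (3.14 to 769). FASN stood highest in NASH in T cell barcodes as well, at 10.4, 44.3 and 16.7 CPM.

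SCD5, a stearoyl-CoA desaturase, was barely counted in hepatocytes. It stood at 50.7, 98.0 and 61.3 CPM in the members and at 1.66, 3.06 and 1.30 CPM in hepatocyte barcodes. NASH was 1.93 (1.34 to 2.84) times Con, and over sub-clusters 0 to 3 2.69 (1.66 to 4.56) times. FADS1, a fatty acid desaturase, stood at 67.2, 154 and 43.2 CPM (2.30, and 2.70 over sub-clusters 0 to 3). ACACA, acetyl-CoA carboxylase, stood at 96.3, 208 and 88.4 CPM, with a ratio of 2.16, against 1.12 over sub-clusters 0 to 3. ACSL3, which activates fatty acids and was not counted in the fatty acid synthesis list, stood at 33.0, 73.9 and 76.9 CPM. It was 2.24 (1.44 to 3.61) times Con in NASH and 2.33 (1.53 to 3.69) times in NASH-T. Its levels over sub-clusters 0 to 3 are not given here.

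Over all genes, 405 were higher and 501 lower in NASH than in Con, and 270 and 309 over sub-clusters 0 to 3. By the rule for named genes, which asks for a ratio of at least 2, at least 50 UMIs and levels not far under those of other cell classes, 51 genes were higher in NASH, 27 of them also over sub-clusters 0 to 3. SYT10, a synaptotagmin of regulated exocytosis, led them with 0, 194 and 5 UMIs, or 0, 156 and 2.51 CPM. NASH was at least 41.0-fold higher than Con, and NASH-T was 62.0-fold lower than NASH. A SYT10 UMI was found in 9.62% of thinned NASH members (14.3% unthinned), in 0 of 270 of Con, which allows up to 1.11%, and in 0.265% of NASH-T. T cell barcodes held 0, 1.58 and 0 CPM, and vascular barcodes had no SYT10 UMI in any library. Of its 194 NASH UMIs, 22, 100 and 27 lay in sub-clusters 0, 1 and 3, and 34 and 10 in sub-clusters 4 and 6.

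WSCD2, a sulfotransferase-domain protein, stood at 30.4, 98.8 and 70.3 CPM, 3.25 (2.08 to 5.26) times Con in NASH and 2.31 (1.49 to 3.73) times in NASH-T. Macrophage barcodes, which also hold WSCD2, stood at 198, 303 and 248 CPM. Within sub-cluster 0 the NASH over Con ratio was 3.46 (1.83 to 7.22). RIMS2, a scaffold of vesicle release sites, stood at 39.3, 133 and 41.2 CPM (3.39, and 2.67 over sub-clusters 0 to 3), but at 39.8, 328 and 148 CPM in hepatocyte barcodes. ANGPT1, the ligand of the endothelial receptor TIE2, stood at 33.0, 104 and 23.1 CPM (3.14, and 3.50), and hepatocyte barcodes held more in every library (101, 295 and 141 CPM). The other named genes were FASN, IDI1 and FDPS, given with the lipid genes, and RERG, PDLIM3 and CNTN4. RERG, PDLIM3 and CNTN4 had at most 10 UMIs in any library over sub-clusters 0 to 3.

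A further 16 genes met every limit but the comparison with T cell barcodes. They included HAMP and FABP1, hepatocyte genes, at 35.5, 203 and 122 CPM and 60.8, 224 and 84.9 CPM in the members, and T cell barcodes held 59.4, 179 and 125 CPM and 74.4, 327 and 118 CPM. The T cell barcodes, which should lack both genes, thus held them in the same order of libraries. No reading of the sinusoidal cells is taken from them.

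Lower in NASH than in Con were 55 named-rule genes, 23 of them also over sub-clusters 0 to 3. CA8, a carbonic anhydrase-related protein, had 54, 19 and 142 UMIs, or 68.4, 15.3 and 71.4 CPM, so NASH was 4.48-fold lower than Con (ratio 0.223, 0.125 to 0.382) and NASH-T stood close to Con. SCIN, the actin-severing protein scinderin, stood at 57.0, 19.3 and 62.8 CPM, 2.96-fold lower in NASH (ratio 0.338, 0.197 to 0.567), with NASH the lowest library. The folds over sub-clusters 0 to 3 were 4.57 and 5.62. Within sub-cluster 3, where both genes had the most UMIs in Con, the ratios were 0.178 (0.0452 to 0.514) for CA8 and 0.455 (0.204 to 0.943) for SCIN. RALGPS2 stood at 256, 71.5 and 109 CPM but at only 34.9, 14.6 and 27.8 CPM over sub-clusters 0 to 3. Of the 10 named genes, 8 were higher in hepatocyte barcodes than in the members (SPON2, CYP2C90, MOXD1, UGDH, MET, MBNL3, CYP2A13 and RALGPS2). So were 35 of all 55, against 15 of the 51 genes higher in NASH, and the share over all measured genes was not computed.

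**Figure D5:**
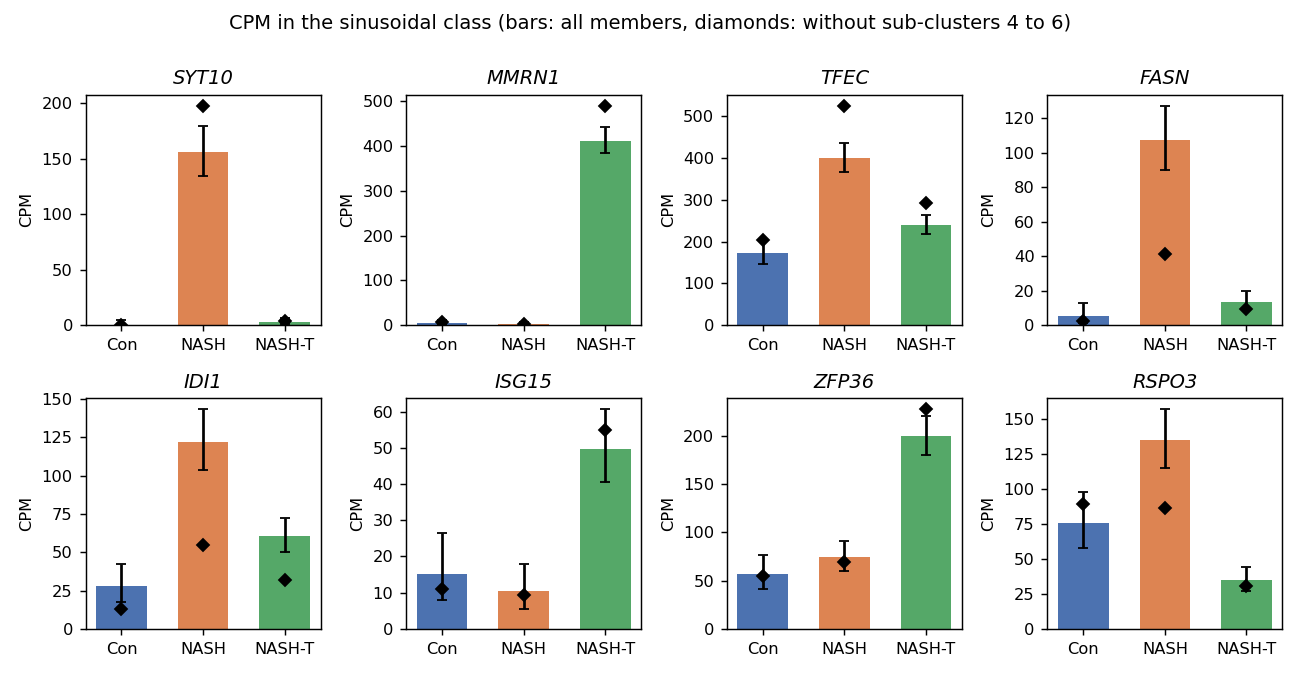
CPM of 8 genes in the sinusoidal members of Con, NASH and NASH-T (bars from 0, with exact Poisson 95% intervals for counting error only) and over sub-clusters 0 to 3 (diamonds). SYT10 is counted almost only in NASH (194 UMIs against 0 and 5) and MMRN1 almost only in NASH-T (821 UMIs against 3 and 2).

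In NASH-T, 505 genes were higher and 898 lower than in Con (5.51% and 9.8% of 9164), and 533 were higher and 784 lower than in NASH (5.62% and 8.27% of 9482). The excess of lower genes was not seen over sub-clusters 0 to 3. There 360 were higher and 359 lower than in Con, and 395 were higher and 307 lower than in NASH. MMRN1, multimerin 1, a secreted elastin-microfibril interface protein of platelets and endothelium, separated NASH-T from the others. It had 3, 2 and 821 UMIs, or 3.80, 1.61 and 413 CPM, 108 (37.0 to 527) times Con and 257 (70.9 to 2124) times NASH. Its level over sub-clusters 0 to 3 was 6.55, 1.33 and 491 CPM. A UMI was found in 0.370%, 0.224% and 21.4% of thinned members (0.333%, 0.353% and 26.7% unthinned), against 0.389%, 0% and 0.0984% of T cell barcodes.

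The MMRN1 UMIs of NASH-T were not held by 1 sub-cluster: 153 lay in sub-cluster 1, 372 in 2 and 229 in 3, or 400, 619 and 813 CPM, while sub-cluster 0 held 17.8 CPM. Vascular barcodes had 1, 1 and 12 UMIs, or 6.33, 7.53 and 45.9 CPM. MMRN1 is also a marker of lymphatic endothelium. The summed lymphatic list, of which MMRN1 is 1 of 10 genes, stood at 905, 1248 and 1396 CPM in the members and at 725, 744 and 1406 CPM over sub-clusters 0 to 3, and 10, 9 and 9 of the 10 genes had a UMI. PDPN, a defining lymphatic marker, was at 0 in NASH and NASH-T. Over sub-clusters 0 to 3 the list gave 4 higher and 0 lower of 7 measured genes for NASH-T against NASH (median log2 ratio 0.87). MMRN1 itself was counted in these sums and among these higher genes, so neither is separate from its own difference. The part of lymphatic endothelium was not tested.

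PCDH7, a protocadherin, stood at 34.2, 52.2 and 154 CPM, 4.49 (3.03 to 6.93) times Con and 2.95 (2.25 to 3.91) times NASH in NASH-T. It was higher in NASH-T within sub-clusters 0, 1 and 3 as well, at 5.24, 7.18 and 5.23 times Con. MDGA2, a glycosylphosphatidylinositol-anchored cell-surface protein, stood at 63.4, 23.3 and 185 CPM, 7.96 (5.45 to 12.1) times NASH, with 19.4 (7.95 to 61.3) in sub-cluster 0 and 12.6 (6.67 to 26.7) in sub-cluster 1. Con lay between the 2 other libraries for MDGA2, at 0.368 (0.224 to 0.592) for NASH over Con. TGFBR1, the type I receptor of TGF-beta, stood at 110.3, 115 and 254 CPM, 2.30 (1.83 to 2.92) times Con and 2.21 (1.83 to 2.68) times NASH, but within sub-cluster 0 NASH-T over Con was 0.863 (0.452 to 1.68).

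RND1, a small GTPase, stood at 13.9, 15.3 and 59.3 CPM (4.25 over Con, 3.89 over NASH), and CA2, carbonic anhydrase 2, at 41.8, 25.7 and 125 CPM (2.98 and 4.85). EPHB1, an ephrin receptor, stood at 58.3, 39.4 and 175 CPM (3.01, 2.21 to 4.19 over Con). Its NASH-T over Con ratio was 1.49 (0.688 to 3.50) in sub-cluster 0 and 0.626 (0.271 to 1.53) in 1, and 240 of its 349 NASH-T UMIs lay in sub-cluster 2. SOX4, DNASE2, STX11, KLF6, ZFP36 and ISG15 completed the genes named as higher than Con, with ratios from 3.27 to 5.31. All 10 also passed over sub-clusters 0 to 3. Those named as higher than NASH also held CD274, CA8, ISG15, SCIN and RAC1, and all 10 passed there too.

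JCHAIN, the joining chain of secreted antibodies, stood at 3.80, 9.64 and 75.4 CPM in the members and at 22.2, 18.2 and 97.5 CPM in T cell barcodes, which should lack it. It was 1 of 28 genes higher than Con that met every limit but that of the T cell barcodes. For NASH-T against NASH there were 17 such genes.

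A part of the interferon-response genes was higher in NASH-T than in the other libraries. For NASH-T against NASH, 16 higher and 0 lower of 30 measured genes passed, with a median log2 ratio of 0.72. For NASH-T against Con the count was 8 higher and 0 lower of 30 (median 0.53), and for NASH against Con 1 higher and 2 lower of 23 (median −0.08). The counts for NASH-T over sub-clusters 0 to 3 were 12 higher and 0 lower of 28 against NASH and 8 higher and 0 lower of 26 against Con. Some of its genes also passed in other classes of NASH-T. Against NASH, macrophage barcodes gave 13 higher and 0 lower of 32, where all genes gave 5.21% higher and 3.78% lower. T cell barcodes gave 7 higher and 1 lower of 29, with 4.43% and 3.19% of all genes, and hepatocyte barcodes 9 higher and 0 lower of 33, with 6.89% and 5.17%.

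ISG15, the ubiquitin-like interferon-induced modifier, had 12, 13 and 99 UMIs, or 15.2, 10.4 and 49.7 CPM, 4.76 (2.66 to 9.26) times NASH and 3.27 (1.79 to 6.54) times Con in NASH-T. MX1, an antiviral GTPase, stood at 30.4, 27.3 and 69.8 CPM (2.56, 1.75 to 3.84 over NASH), and IFI6 at 79.8, 77.1 and 171 CPM (2.22, 1.76 to 2.81). OAS1, which makes 2′-5′ oligoadenylates on viral RNA, stood at 118, 146 and 248 CPM (1.70, 1.43 to 2.02), and EIF2AK2, the kinase PKR, at 112, 129 and 204 CPM (1.59, 1.32 to 1.92). NASH-T was the highest of the libraries for these 5 genes, and Con and NASH did not differ past the limit. DDX58, which encodes the RNA sensor RIG-I, had another order, with 63.4, 31.3 and 54.8 CPM: NASH was 2.02-fold lower than Con (ratio 0.494, 0.317 to 0.767) and NASH-T was not above Con (0.864, 0.613 to 1.23). CMPK2 was like it, at 41.8, 21.7 and 44.2 CPM.

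Within each of sub-clusters 0 to 3 alone, fewer interferon genes were measured and fewer passed. For NASH-T against NASH, 0 higher and 0 lower of 13 measured genes passed in sub-cluster 0 (median log2 ratio 0.00), where all genes gave 5.89% and 4.2%. Sub-cluster 1 gave 1 higher and 2 lower of 15 (median −0.19), with 4.68% and 3.52% of all genes. Sub-cluster 2, with 336 NASH-T barcodes and only 18 of NASH, gave 2 higher and 0 lower of 21 (median 0.15), with 1.17% and 2.85%. Sub-cluster 3 gave 3 higher and 0 lower of 14 (median 0.71), with 4.75% and 4.16%. Sub-cluster 2, which MX1 and OAS1 lead, held 55 of the 99 ISG15 UMIs and 93 of the 139 MX1 UMIs of NASH-T. Sub-clusters were built from these same counts, so the genes helped to place the barcodes.

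Immediate early genes, which cells switch on within minutes of stimulation and also during tissue digestion, were in part higher in NASH-T. The counts were 9 higher and 0 lower of 23 measured genes against Con (median log2 ratio 0.58) and 11 higher and 0 lower of 23 against NASH (median 0.69), while NASH against Con gave 0 higher and 0 lower of 21. Without sub-clusters 4 to 6 these were 10 higher and 0 lower of 22, 9 higher and 0 lower of 23 and 1 higher and 0 lower of 19. For NASH-T against Con, macrophage barcodes gave 10 higher and 0 lower of 28, where all genes gave 3.98% higher and 5.16% lower. T cell barcodes gave 3 higher and 0 lower of 24, with 3.73% and 3.92% of all genes, and hepatocyte barcodes 5 higher and 2 lower of 30, with 4.76% and 7.72%. Mitochondrial UMIs, which often rise with cell stress, made up 0.289%, 0.267% and 0.381% of the members' UMIs, 0.446%, 0.594% and 1.09% of those of T cells and 0.160%, 0.131% and 0.301% of the libraries'. NASH-T was highest in each, and the part of RNA quality was not tested. Whether digestion or the liver set these levels was not tested.

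FOS stood at 52.0, 55.4 and 121 CPM (2.33, 1.67 to 3.33 in NASH-T over Con) and JUN, its partner in the AP-1 transcription factor, at 98.9, 122 and 207 CPM (2.09, 1.64 to 2.70). DUSP1, a phosphatase that ends MAP kinase signals, stood at 106, 106 and 241 CPM (2.26, 1.79 to 2.89). ZFP36, which degrades messages of inflammatory cytokines, stood at 57.0, 74.7 and 200.0 CPM (3.51, 2.57 to 4.89 over Con and 2.68, 2.13 to 3.39 over NASH). For all 4 genes NASH-T was the highest library. Within sub-cluster 0, 5 higher and 0 lower of 16 genes passed for NASH-T against Con, where all genes gave 5.16% and 4.94%. Sub-cluster 1 gave 6 and 0 of 17, with 5.33% and 4.06% of all genes, and sub-cluster 2 gave 2 and 2 of 18, with 1.21% and 3.52%. Sub-cluster 3 gave 3 and 0 of 15, with 4.71% and 5.12%. DUSP1 alone was at 2.58 (1.57 to 4.44), 2.76 (1.31 to 6.68) and 2.38 (1.43 to 4.18) times Con in 0, 1 and 3.

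KLF2, the transcription factor induced by laminar shear stress, stood at 223, 251 and 422 CPM, 1.89 (1.60 to 2.24) times Con in NASH-T (1.60 over sub-clusters 0 to 3). PIEZO1, the mechanosensitive channel, stood at 86.2, 129 and 162 CPM (1.88, 1.44 to 2.48). NOS3, the endothelial nitric oxide synthase, stood at 27.9, 20.1 and 31.7 CPM and passed in no comparison. The list of nitric oxide, shear and vascular tone gave 3 higher and 4 lower of 19 (3 and 2 of 17) for NASH-T against Con. Of the 4 lower genes, which are known from smooth muscle and stellate cells too, GUCY1A1, PDE3A and PTGIS did not pass over sub-clusters 0 to 3, where PDE3A was at 0 in Con and NASH. PRKG1, the cyclic GMP-dependent kinase, stood at 72.2, 43.4 and 24.6 CPM and was lower in NASH-T than in Con in both (0.341, and 0.343 over sub-clusters 0 to 3).

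Antigen presentation genes gave 5 higher and 0 lower of 20 (4 and 0 of 18) for NASH-T against NASH, 4 higher and 0 lower of 19 (3 and 1 of 19) for NASH-T against Con and 0 higher and 3 lower of 17 (0 and 1 of 13) for NASH against Con. All genes gave 5.62%, 5.51% and 4.84% higher in these comparisons, in turn. CD274, the inhibitory ligand PD-L1, had 14, 8 and 71 UMIs, or 17.7, 6.43 and 35.7 CPM, 5.55 (2.67 to 13.4) times NASH in NASH-T. NASH was the lowest library (0.362, 0.132 to 0.925 of Con). CD40, a costimulatory receptor, had the same low point, at 17.7, 4.82 and 17.1 CPM (3.55, 1.47 to 10.3 for NASH-T over NASH). IFI30, a lysosomal thiol reductase of antigen processing, stood at 12.7, 19.3 and 36.2 CPM (2.85, 1.47 to 6.20 for NASH-T over Con), and TAPBP, tapasin, at 30.4, 47.4 and 70.9 CPM (2.33, 1.5 to 3.76). CIITA, the activator of MHC class II genes, was highest in Con, at 25.3, 8.84 and 13.6 CPM.

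Adhesion and inflammatory genes gave 3 higher and 3 lower of 28 (0 and 1 of 25) for NASH against Con, 4 higher and 3 lower of 29 (1 and 0 of 28) for NASH-T against Con and 8 higher and 2 lower of 30 (6 and 2 of 28) for NASH-T against NASH. Without sub-clusters 4 to 6, the counts of the comparisons with Con lay close to the shares of all genes, 4.19% to 4.79%, for lists of this size. ICAM1, the leukocyte adhesion ligand, stood at 29.2, 42.6 and 64.3 CPM (2.21, 1.41 to 3.61 for NASH-T over Con, and 2.26 over sub-clusters 0 to 3). TNFAIP3, an inhibitor of NF-kappaB signalling, was lowest in NASH, at 46.9, 20.9 and 42.2 CPM. The chemokine CXCL10 had 14, 0 and 23 UMIs, and NASH-T was at least 4.80-fold higher than NASH. CXCL9, of the same family, had 26, 3 and 28 UMIs, and only 3, 2 and 25 of them lay in sub-clusters 0 to 3.

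Angiocrine genes included some that stellate cells also make. RSPO3, which amplifies Wnt signals in the pericentral zone, stood at 76.0, 135 and 35.2 CPM, 2.16-fold lower in NASH-T than in Con (ratio 0.463, 0.323 to 0.664) and 3.84-fold lower than in NASH. Con and NASH were alike over sub-clusters 0 to 3, at 89.5, 86.3 and 31.0 CPM, and NASH-T remained 2.88-fold under Con. Within sub-cluster 0, where 39, 61 and 44 of its UMIs lay, the NASH-T over Con ratio was 0.701 (0.445 to 1.11) and did not pass. That sub-cluster made up 31%, 32.3% and 15.9% of the members, and the part of this in the RSPO3 difference was not tested. WNT2, the Wnt ligand of these cells, stood at 41.8, 52.2 and 64.8 CPM over all members and at 67.7, 74.4 and 75.0 CPM over sub-clusters 0 to 3, where no comparison passed. HGF, hepatocyte growth factor, stood at 346, 673 and 274 CPM and at 199, 266 and 200.5 CPM, with NASH over Con ratios of 1.95 and 1.34. For HGF and RSPO3, summed stellate markers stood at 793, 1515 and 513 CPM in the members and at 238, 328 and 295 CPM over sub-clusters 0 to 3.

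CXCL12, the ligand of CXCR4, stood at 74.8, 119 and 38.7 CPM, and NASH-T was 3.07-fold under NASH (2.32-fold over sub-clusters 0 to 3). CCN2, connective tissue growth factor, stood at 149.6, 186 and 322 CPM, 2.15 (1.76 to 2.64) times Con in NASH-T (2.05 over sub-clusters 0 to 3). BMP6, the ligand that sets hepatocyte hepcidin, stood at 270.0, 315 and 282 CPM, and BMP2 at 53.2, 57.8 and 71.9 CPM, and neither passed in any comparison over all members. The whole angiocrine list gave 3 higher and 8 lower of 19 for NASH-T against NASH and, over sub-clusters 0 to 3, 4 higher and 5 lower of 18.

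Periportal sinusoid genes gave 0 higher and 4 lower of 10 (0 and 3 of 9) for NASH-T against Con and 0 higher and 2 lower of 10 (0 and 1 of 9) for NASH against Con. All genes gave 9.8% and 5.99% lower over all members, in turn. BTNL9, a butyrophilin-like protein, stood at 57.0, 30.5 and 30.7 CPM, under Con by 1.87-fold in NASH and 1.86-fold in NASH-T, and by 1.91-fold and 2.25-fold over sub-clusters 0 to 3. JAG1, a Notch ligand, stood at 125, 91.6 and 83.4 CPM (0.665, 0.515 to 0.862 for NASH-T over Con). EFNB2, the arterial ephrin ligand, stood at 683, 594 and 780.4 CPM and passed in none. Of pericentral sinusoid genes, which include RSPO3, WNT2, LYVE1 and ICAM1, 3 higher and 2 lower of 8 passed for NASH-T against Con and 1 higher and 1 lower of 7 over sub-clusters 0 to 3.

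Capillarisation and basement membrane genes gave 4 higher and 2 lower of 22 (3 and 2 of 19) for NASH against Con, 3 higher and 2 lower of 21 (1 and 3 of 20) for NASH-T against Con and 2 higher and 1 lower of 22 (1 and 0 of 20) for NASH-T against NASH. For NASH-T against Con, 1 gene was higher and 3 were lower over sub-clusters 0 to 3, where all genes gave 4.62% and 4.6%. COL4A1, a chain of basement membrane collagen, stood at 77.3, 158 and 119.6 CPM, 2.05 (1.53 to 2.77) times Con in NASH, and HSPG2, perlecan, at 77.3, 137 and 121 CPM, 1.77 (1.31 to 2.41) times. Con was the lowest library for both. Their ratios over sub-clusters 0 to 3 were 1.69 (1.21 to 2.39) and 1.74 (1.23 to 2.51), and for NASH-T over Con, 1.25 and 1.31, under the limit. CD34 and PLVAP, markers of continuous and diaphragmed capillaries, stood at 63.4, 73.1 and 65.3 CPM and 123, 133 and 155 CPM and passed in no comparison. CAV1, caveolin 1, was highest in Con, at 105, 77.1 and 83.9 CPM. ACKR1, the chemokine scavenger of venules, stood at 110.3, 93.2 and 226 CPM, 2.05 (1.62 to 2.60) times Con in NASH-T. FN1, fibronectin, was lower in both HRDS groups over all members, at 212, 126 and 113 CPM (0.596 and 0.534 of Con). Its levels over sub-clusters 0 to 3 and in hepatocyte barcodes are not given here, and the part of hepatocyte RNA was not tested.

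TFPI, the inhibitor of tissue factor, was lower in both HRDS groups. It stood at 124, 67.5 and 62.3 CPM, 1.84-fold under Con in NASH (ratio 0.543, 0.401 to 0.735) and 1.99-fold in NASH-T (ratio 0.502, 0.382 to 0.661). It stood at 120.1, 39.8 and 39.4 CPM over sub-clusters 0 to 3, 3.01-fold and 3.04-fold under Con. Within sub-clusters 0, 1 and 3 the NASH over Con ratios were 0.401, 0.336 and 0.302, so the direction held in each. GAS6, a ligand of TAM receptors, was lowest in NASH, at 110.3, 69.1 and 123 CPM. The coagulation list gave 1 higher and 2 lower of 14 (2 and 2 of 13), 0 higher and 3 lower of 15 (0 and 1 of 15) and 1 higher and 1 lower of 15 (1 and 0 of 15) for NASH against Con, NASH-T against Con and NASH-T against NASH.

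Guidance genes of the semaphorin, ephrin and Robo families differed in both directions. ROBO2, a Slit receptor, stood at 241, 351 and 119 CPM, and at 65.5, 217 and 54.3 CPM over sub-clusters 0 to 3, where NASH was 3.31 (2.23 to 5.06) times Con and 3.99-fold above NASH-T. SEMA5A stood at 29.2, 48.2 and 72.4 CPM over all members and at 10.9, 27.9 and 73.7 CPM there, 6.75 (2.81 to 21.2) times Con in NASH-T. EPHA7, an ephrin receptor and a leading gene of sub-cluster 3, stood at 60.8, 25.7 and 45.2 CPM over all members and at 89.5, 12.0 and 47.8 CPM there, 7.49-fold lower in NASH than in Con. SEMA7A, a membrane-anchored semaphorin, stood at 31.7, 12.0 and 16.1 CPM over all members, 2.63-fold and 1.97-fold under Con in NASH and NASH-T. The list gave 4 higher and 5 lower of 30 (2 and 3 of 20), 2 higher and 5 lower of 28 (2 and 3 of 23) and 5 higher and 4 lower of 30 (6 and 1 of 24) in the 3 comparisons, in the order used for coagulation.

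Of the endocytosis and lysosome genes, which serve the clearance function of these cells, 1 higher and 1 lower of 38 (1 and 1 of 35) passed for NASH against Con, 1 higher and 0 lower of 38 (1 and 0 of 38) for NASH-T against Con and 2 higher and 1 lower of 41 (0 and 0 of 40) for NASH-T against NASH. The gene higher than Con in NASH-T over all members was CTSD, cathepsin D, at 204, 258 and 351 CPM (1.72, 1.45 to 2.05), and it did not pass over sub-clusters 0 to 3 (1.44). In the VEGF and angiopoietin pathway, KDR, the main VEGF receptor and a rule gene, stood at 1128, 1068 and 1337 CPM. The pathway gave 2 higher and 1 lower of 17 (1 and 2 of 15), 1 higher and 1 lower of 16 (1 and 1 of 15) and 2 higher and 3 lower of 17 (2 and 1 of 16). PLXND1, a semaphorin receptor, was lowest in NASH, at 49.4, 30.5 and 55.8 CPM. In the BMP and TGF-beta pathway the counts were 0 higher and 2 lower of 26 (0 and 1 of 21), 3 higher and 2 lower of 26 (2 and 1 of 21) and 3 higher and 5 lower of 27 (2 and 0 of 20). ID3, a BMP target, stood at 74.8, 102 and 146 CPM (1.95, 1.47 to 2.62 in NASH-T over Con). The Notch pathway gave 0 higher and 0 lower of 13 (0 and 2 of 13), 0 higher and 3 lower of 14 (0 and 2 of 13) and 0 higher and 0 lower of 13 (1 and 0 of 13).

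Of 27 proliferation genes in the matrices, 9 to 12 were measured. They gave 2 higher and 0 lower of 9 (2 and 0 of 6), 3 higher and 0 lower of 10 (1 and 0 of 6) and 1 higher and 0 lower of 12 (1 and 2 of 10), in the same order of comparisons. CENPF and CENPE, kinetochore proteins of dividing cells, had no UMI in Con, 24 and 23 in NASH and 21 and 27 in NASH-T. NASH was at least 5.07-fold and 4.86-fold higher than Con. These bounds treat each UMI as independent, and the number of barcodes that held the UMIs is not given here. Lipid uptake genes gave 5 higher and 2 lower of 24, 2 higher and 3 lower of 24 and 2 higher and 8 lower of 26, and over sub-clusters 0 to 3 2 higher and 2 lower of 19, 1 higher and 3 lower of 22 and 0 higher and 2 lower of 22. Endothelial to mesenchymal genes gave 1 higher and 2 lower of 11 (1 and 1 of 6), 0 higher and 4 lower of 10 (0 and 1 of 7) and 0 higher and 5 lower of 12 (0 and 1 of 7). Of those lower in NASH-T than in Con, ACTA2 and COL1A2 had under 20 UMIs over both libraries once sub-clusters 4 to 6 were left out.

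Of 192 genes lower in NASH-T than in Con within the named-gene limits, 172 stood higher in hepatocyte barcodes than in the members. Of the 62 higher genes within these limits 2 did, and the share over all measured genes was not computed. Of the 192 lower genes, 45 passed over sub-clusters 0 to 3. Of the 10 named, 3 passed there, among them DOK6 and PLXDC2. DOK6, an adaptor of receptor tyrosine kinases, stood at 122, 58.6 and 25.1 CPM and over sub-clusters 0 to 3 at 120.1, 58.4 and 4.53 CPM, 26.5-fold lower in NASH-T than in Con (ratio 0.0377, 0.0145 to 0.0830). Vascular barcodes held 266, 414 and 489 CPM, an opposite order. PLXDC2, a plexin-domain membrane protein, stood at 137, 88.4 and 33.2 CPM, 4.13-fold lower in NASH-T than in Con. That ratio was 0.123 (0.0619 to 0.229) in sub-cluster 1 and 0.919 (0.526 to 1.63) in sub-cluster 0. Against NASH, the named lower genes that passed over sub-clusters 0 to 3 were SYT10, FASN, ANK2 and PLOD2, of 131 within the limits.

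Set against the 263 vascular endothelial barcodes, which the rule kept apart, the sinusoidal members held more CLEC9A, MRC1, OIT3 and F8 and less PECAM1, PLVAP and CD34. The ratios of sinusoidal over vascular CPM for OIT3 were 5.27, 10.4 and 9.09 in Con, NASH and NASH-T, and for F8 2.48, 4.00 and 4.59. MAF was alike in the 3 libraries, at 3.66, 3.75 and 3.73. PLVAP was 2.94, 2.88 and 2.14 times lower in the sinusoidal members and CD34 3.50, 5.77 and 4.80 times lower. The rule used this contrast, so these values describe the choice.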

How the data were processed

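The deposited files held UMI counts, 1 gene-by-barcode matrix for each of 3 droplet libraries of pooled goat liver. Counts were made with Cell Ranger 7.0.0, per the submitters' processing notes. No genome build or annotation was given in the sources used here. Barcodes numbered 7485 (Con), 8731 (NASH) and 9375 (NASH-T), each with at least 500 UMIs, with 25506238, 31195014 and 29572158 UMIs in all and medians of 2461, 2555 and 2201 per barcode. Of 27271 genes, 9958 carried an identifier only and were never named.

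Members were picked by the rule, their UMIs were summed by library, and CPM were computed from the sums. Intervals are exact binomial for shares, Katz for ratios of shares, exact Poisson for CPM and exact conditional binomial for ratios of CPM. They cover counting error only, at a level of 95%. Each group was 1 library of 5 pooled livers, so no test was made and no p-value is given. The ratio step was run on simulated independent Poisson counts, the model its intervals assume. This checked the computation only, since the simulation held no differences between cells or between pools.

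Hepatocyte, macrophage, T cell and vascular barcodes served for comparison: hepatocytes and vascular cells by at least 4 UMIs of the sums in the rule where these led, macrophages and T cells by at least 2 UMIs of MSR1 or THEMIS, above the 3 sums. Sub-clusters came from scanpy 1.11.5 (2000 variable genes, 30 principal components, 15 neighbours, Leiden resolution 0.5, seed 0). Doublets were called by Scrublet at an expected rate of 0.06 (291, 342 and 436 barcodes) and kept.

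The members and the 33 gene lists were chosen with earlier results of these data known. Named genes were the 10 with the largest ratios in each comparison and direction among genes with a symbol and outside the 11 rule genes. They needed at least 50 UMIs over both libraries, a UMI in at least 5% of members of the higher library and a fold of 2 or more whose interval excluded 1. They also needed CPM of at least 20% of that in each comparison class, and at least 2 times the UMIs per barcode of the T cell barcodes. From each list up to 4 members past the limit were named, and any needed to describe a level. Genes not in these tables under their symbol were not analysed here, and a few genes of the lists and rankings are not reported here. Tools were python 3.11.15, numpy 2.4.6, scipy 1.17.1, pandas 2.3.3 and matplotlib 3.10.9. The alternatives were other minimum sums, doublet calls removed, CPS1 and ABCB11 at 0, a minimum of 1000 UMIs, thinning to 1000 UMIs, another denominator, other scalings and other UMI minimums. Leaving out sub-clusters 4 to 6 was chosen after seeing the data.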

Additional observations from a re-analysis of the deposited data

How the results depend on the processing

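No paired analysis was possible because each group was 1 library. The NASH over Con ratio of shares was 1.94 among barcodes with CPS1+ABCB11 below 4 and 1.41 when the rule was applied to counts thinned to 1000 UMIs with a minimum of 2. The NASH-T over NASH ratio was 1.14 with that denominator and 1.71 without sub-clusters 4 to 6. Under the other settings the 3 ratios of shares stayed within their intervals. Thinning, which leaves fewer UMIs, gave 227, 285 and 298 higher genes for NASH against Con, NASH-T against Con and NASH-T against NASH, and 231, 400 and 471 lower genes. Lower genes numbered 312, 393 and 431 with CPS1 and ABCB11 at 0, and 309, 359 and 307 without sub-clusters 4 to 6.

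Median log2 ratios changed sign for B or plasma cell markers (0.028) and dendritic cell markers (0.25) in NASH against Con after thinning. Those of stellate markers changed sign without sub-clusters 4 to 6, to 0.24 in NASH-T against Con and 0.67 in NASH-T against NASH. Gene ratios also turned without these sub-clusters: CNTN4 (0.608), ELOVL6 (0.811) and CYP2C90 (1.22) in NASH against Con, and CYP2C90 (1.78), PPA1 (1.93) and PRKAA2 (2.67) in NASH-T against Con. PDE1A turned in NASH-T against NASH (2.43). With CPS1 and ABCB11 at 0, CYP2C90 stood at 1.17 in NASH against Con and 1.56 in NASH-T against Con. PPA1 stood at 1.07 in NASH-T against Con after thinning. The cause of each was not tested. Scaling by the median ratio shifted all log2 ratios by 0.00, 0.02 and 0.02. Depth limits the rest: a gene with 0 of the 789016 UMIs of Con could still hold 3.80 CPM there.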
